A study of Mus musculus with 24 samples.

Results

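Genes whose products read methylated CpG sites or repair altered cytosines were followed in mouse cerebellum at 7 and 79 weeks of age: Mbd1, Mbd2, Mbd3, Mbd4, Mbd5, Mbd6, Zbtb33, Tdg and Smug1. They were taken as a list of names, with earlier results of these data known, and 9 of 9 symbols were found among the 37991 gene identifiers of the count tables. Every one of the 9 passed the low-count filter that left 15292 genes for testing. The mice were males of the inbred strain C57BL/6J, the labels name no treatment or altered allele, and each age has 2 mRNA libraries. The series also holds 20 samples of genomic DNA from cerebellum and cortex, which were not analysed here. Whether the 2 libraries of an age came from different mice is not given in the labels, so the spread behind the p-values could be only technical.

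Methylation of cytosine at CpG sites is read by proteins that carry a methyl-CpG binding domain and by some zinc finger proteins, and these readers bring corepressor complexes to the DNA. Methylated cytosine that deaminates becomes thymine, and oxidised forms of methylcytosine arise through the Tet enzymes. DNA glycosylases cut such bases out, and base excision repair then fills the gap with cytosine. Neurons hold high levels of methylcytosine and hydroxymethylcytosine.

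Each library held 16367656 to 22826993 reads counted in genes. Levels are given as CPM, read counts relative to library size, scaled between libraries by TMM, a method that evens out differences in RNA composition. The 9 genes had between 213 reads (Smug1 in 7-week replicate 1) and 3173 reads (Mbd6 in 79-week replicate 2), so none was near the limit of detection. A count of 0 would allow up to 0.131 to 0.183 CPM, counting error only. Markers of cerebellum were high in each library, with summed levels of 3066 to 3952 CPM for 6 granule neuron genes and 8015 to 9983 CPM for 6 Purkinje cell genes. The summed level of 4 forebrain neuron genes was 7.04 to 10.2 CPM. The library 79-week replicate 1 stood apart, since 6 choroid plexus genes summed to 5270 CPM there and to 8.29 to 15.6 CPM in the other 3 libraries. The 5 myelinating oligodendrocyte genes summed to 2960 CPM in that library and to 4199 to 4945 CPM in the others. Results are therefore also given without it.

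Of the 9 genes, 1, Mbd6, was called different between the ages, and it rose. A gene was called where edgeR's quasi-likelihood test gave a p under 0.05 after Benjamini-Hochberg adjustment over every gene tested. The share of 11.1% is near the background, because the same test called 8.84% of all tested genes, 4.17% as higher and 4.68% as lower at 79 weeks. That is 637 higher and 715 lower, whereas scaling by library size alone gave 901 and 484, with Mbd6 again the only one of the 9 called. The libraries of the ages did not overlap for 5 of the 9 genes, or 55.6%, against 57.7% of all tested genes. The median log2 fold change was 0.05 over the 9 genes and 0.01 over all tested genes. Log2 fold changes are given as 79 against 7 weeks with their standard error (SE), and levels as mean ± SD over 2 libraries per age.

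**Figure D1:**
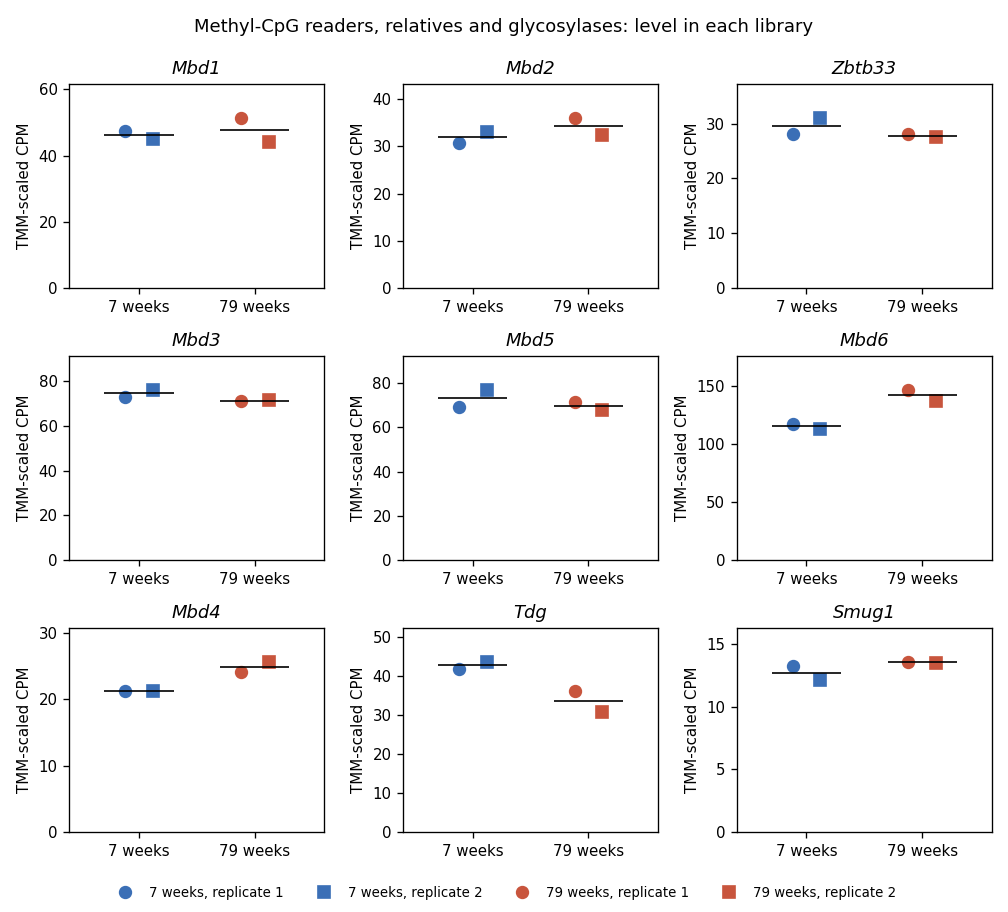
TMM-scaled CPM (vertical axes, from 0, on a scale of their own for each gene) in each library at 7 and 79 weeks, with circles for replicate 1, squares for replicate 2 and a black line for the mean of an age. The 79-week points lie above the 7-week points for Mbd6 (137 and 146 against 113 and 117 CPM) and below them for Tdg (30.8 and 36.2 against 41.8 and 43.6 CPM).

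Mbd1, Mbd2 and Zbtb33 are the readers that bind methylated CpG. Mbd1 (ENSMUSG00000024561), which works with a histone H3 lysine methyltransferase, had 47.4 and 44.9 CPM at 7 weeks and 51.4 and 44.0 CPM at 79 weeks. The 79-week libraries lay on either side of both 7-week libraries, so the ages overlapped. The log2 fold change was 0.05 (SE 0.09, adjusted p = 0.799), and -0.07 when 79-week replicate 1 was left out.

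Mbd2 (ENSMUSG00000024513), a subunit of the NuRD chromatin remodelling and deacetylase complex, had 30.8 and 33.1 CPM at 7 weeks and 36.0 and 32.5 CPM at 79 weeks. The lower 79-week library lay between the 7-week libraries. Its log2 fold change was 0.10 (SE 0.09, adjusted p = 0.525), or 0.03 when 79-week replicate 1 was left out. Zbtb33 (ENSMUSG00000048047), which encodes the zinc finger reader Kaiso, had 28.0 and 31.0 CPM at 7 weeks and 28.1 and 27.5 CPM at 79 weeks. The 7-week libraries held both the highest value and one between the 79-week values, so the ages overlapped. The log2 fold change of Zbtb33 was -0.09 (SE 0.09, adjusted p = 0.565), or -0.11 when 79-week replicate 1 was left out.

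For none of the 3 readers was a difference between the ages larger than the spread between libraries. The 95% intervals of the log2 fold change ran from -0.17 to 0.26 for Mbd1, from -0.11 to 0.31 for Mbd2 and from -0.30 to 0.12 for Zbtb33. Differences within these bounds were not excluded with 2 libraries per age.

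Mbd3, Mbd5 and Mbd6 carry the same domain but do not prefer methylated CpG in mammals. Mbd3 (ENSMUSG00000035478) takes the place of Mbd2 in a separate NuRD complex. It had 73.2 and 76.1 CPM at 7 weeks and 71.1 and 71.7 CPM at 79 weeks, so both 79-week libraries were lower by a narrow margin. That difference did not pass the test, with a log2 fold change of -0.06 (SE 0.06, 95% interval -0.21 to 0.08, adjusted p = 0.546), and -0.06 when 79-week replicate 1 was left out.

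Mbd5 (ENSMUSG00000036792) and Mbd6 bind a complex that removes ubiquitin from histone H2A. Mbd5 had 69.4 and 76.9 CPM at 7 weeks and 71.6 and 67.9 CPM at 79 weeks, and the ages overlapped. The log2 fold change was -0.07 (SE 0.07, 95% interval -0.24 to 0.10, adjusted p = 0.592), and -0.11 when 79-week replicate 1 was left out.

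Mbd6 (ENSMUSG00000025409) had 117 and 113 CPM at 7 weeks and 146 and 137 CPM at 79 weeks. Both 79-week libraries were above both 7-week libraries. The mean went from 115.2 ± 2.86 to 142 ± 6.55 CPM (n = 2 per age), a 1.23-fold rise. Its log2 fold change was 0.30 (SE 0.06, 95% interval 0.17 to 0.43, adjusted p = 0.0218), and DESeq2 and limma-voom also called it (adjusted p = 0.011 and 0.0301).

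The rise of Mbd6 kept its direction with each library left out, but the call did not hold in most of those fits. In edgeR the adjusted p was 0.146 without 7-week replicate 1, where the test called 0 genes of all (2610 at an unadjusted p under 0.05, 243 called by DESeq2). Leaving out 7-week replicate 2 gave 0.127. Leaving out 79-week replicate 1, which has the high choroid plexus markers, gave 0.0527 and a log2 fold change of 0.25. Without 79-week replicate 2 the gene stayed called at 0.34 (adjusted p = 0.00567). DESeq2 did not call it with any 1 library left out (adjusted p = 0.129 to 0.517).

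Summed markers of most cell types did not overlap between the ages, and 57.7% of all tested genes did not either. Those of inhibitory interneurons did overlap, at 1227 and 1303 CPM at 7 weeks and 1288 and 1365 CPM at 79 weeks. The 6 granule neuron genes summed to 3921 to 3952 CPM at 7 weeks and 3066 to 3173 CPM at 79 weeks, the 6 Purkinje cell genes to 9853 to 9983 and 8015 to 8285 CPM, and the 6 microglia genes to 100.3 to 111 and 161 to 196 CPM. Their part in the result was not tested, and in bulk tissue fewer cells of a type and less RNA per cell cannot be told apart. The span of Mbd6 overlaps those of Dctn2 and Ddit3 in the RefSeq annotation, and how the counting used strand is not given in the sources used here. Neither neighbour was called, with log2 fold changes of -0.01 for Dctn2 (adjusted p = 0.908) and -0.01 for Ddit3 (adjusted p = 0.965).

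**Figure D2:**
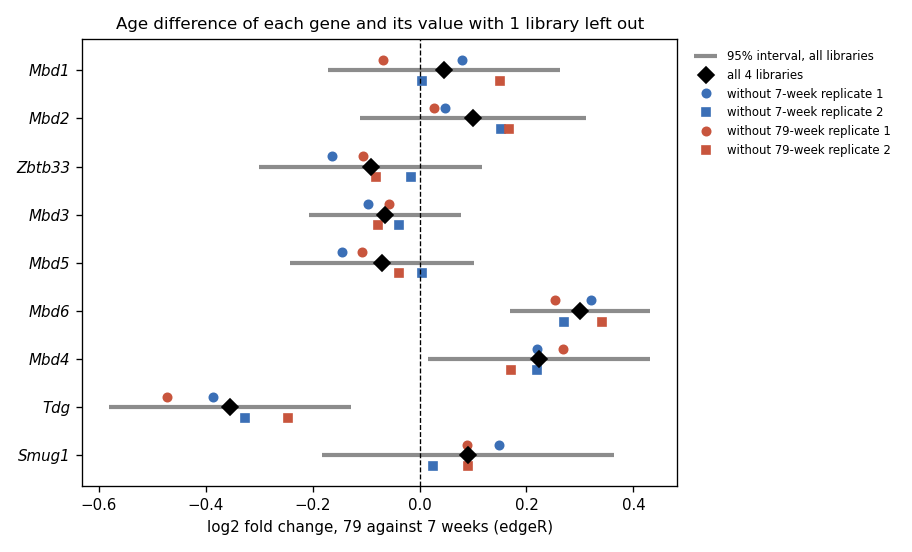
Log2 fold change of 79 against 7 weeks (horizontal axis) for each gene, as black diamonds with grey 95% intervals for all 4 libraries and coloured points for fits with 1 library left out. All 4 such points lie above 0 for Mbd6 and Mbd4 and below 0 for Tdg, while those of Mbd1 and Mbd5 lie on both sides of 0.

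Mbd4, Tdg and Smug1 are the DNA glycosylases. Mbd4 (ENSMUSG00000030322) joins a methyl-CpG binding domain to a glycosylase that removes thymine or uracil facing guanine at CpG sites. It had 21.3 and 21.3 CPM at 7 weeks and 24.1 and 25.6 CPM at 79 weeks, so both 79-week libraries were higher. The log2 fold change was 0.22 (SE 0.09, 95% interval 0.02 to 0.43), with an unadjusted p of 0.0382 that missed the threshold after adjustment (adjusted p = 0.16). It ranged from 0.17 to 0.27 over the edgeR fits with 1 library left out and was called in none of the alternatives run. An unadjusted p under 0.05 in edgeR was common, reached by 26.7% of all tested genes and by 3 of the 9.

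Tdg (ENSMUSG00000034674) encodes thymine DNA glycosylase, which removes thymine from mismatches with guanine and also the formyl and carboxyl forms of cytosine that Tet enzymes make. It had 41.8 and 43.6 CPM at 7 weeks and 36.2 and 30.8 CPM at 79 weeks. Both 79-week libraries were below both 7-week libraries, and they differed from each other more than the 7-week pair did. The mean was 42.7 ± 1.25 CPM at 7 weeks and 33.5 ± 3.81 CPM at 79 weeks (n = 2 per age). The log2 fold change was -0.35 (SE 0.10, 95% interval -0.58 to -0.13), with an unadjusted p of 0.00713 that missed the threshold after adjustment (adjusted p = 0.0638).

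Whether Tdg was called depended on the libraries used and on the settings. Once the library with high choroid plexus markers, 79-week replicate 1, was left out, the log2 fold change was -0.47. Its SE was 0.11, against 0.10 with all 4 libraries, so the estimate was no more precise. edgeR called Tdg lower there, as the only one of the 9 genes, and DESeq2 did not call it on the same 3 libraries. With 1 library left at 79 weeks, the edgeR fit had 25.6 degrees of freedom, mostly borrowed from other genes. The fit with all 4 libraries borrowed from other genes too. How far a call came from such borrowing was not tested. Without 79-week replicate 2 the log2 fold change was -0.25. With all 4 libraries, edgeR called it lower with robust dispersion estimates (adjusted p = 0.0371) and with no filter on low counts (adjusted p = 0.00249), while DESeq2 and limma-voom did not (adjusted p = 0.0912 and 0.0611). The pseudogene copies Tdg-ps and Gm9855 held 1 to 4 reads in a library, against 671 to 903 for Tdg. Reads at several places were dropped, so these counts cannot show how many reads matched both Tdg and a copy.

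Smug1 (ENSMUSG00000036061), which removes uracil and hydroxymethyluracil, had 13.3 and 12.2 CPM at 7 weeks and 13.6 and 13.5 CPM at 79 weeks. The 79-week libraries were just above the higher 7-week library. With 213 to 312 reads per library, Smug1 was the least covered of the 9 genes, and its interval was the widest. The log2 fold change was 0.09 (SE 0.12, 95% interval -0.18 to 0.36, adjusted p = 0.668), and 0.09 when 79-week replicate 1 was left out.

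Spans of other genes overlap some of the 9 in the RefSeq annotation, and reads set aside as lying in overlapping genes were dropped. How strand was used in counting is not given, and its effect on these genes was not tested. Ift122, which overlaps Mbd4, had a log2 fold change of 0.06 (adjusted p = 0.719), and Orc4, which overlaps Mbd5, one of -0.06 (adjusted p = 0.599). Tmem255a, which overlaps Zbtb33, had one of -0.37 (adjusted p = 0.0693). Glt8d2, which overlaps Tdg, was at 0.87 and 1.93 CPM as means of 7 and 79 weeks.

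The promoters of the called gene Mbd6 and of Tdg, the gene with the largest difference in the other direction, show how dense CpG sites are upstream of these genes. Each line holds 200 bases that end 50 bases before a RefSeq start site (build GRCm38.p6), 5′ to 3′ on the gene's strand, with CpG sites in capitals. The Mbd6 stretch, chr10:127289069-127289268 on the minus strand, lies within the span of longer Mbd6 gene models and holds 12 CpG sites. The Tdg stretch, chr10:82629588-82629787 on the plus strand, holds 14.
Mbd6: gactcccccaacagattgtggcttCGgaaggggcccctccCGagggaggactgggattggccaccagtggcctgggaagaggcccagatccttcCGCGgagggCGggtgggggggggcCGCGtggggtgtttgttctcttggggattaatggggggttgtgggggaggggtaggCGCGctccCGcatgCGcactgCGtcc
Tdg: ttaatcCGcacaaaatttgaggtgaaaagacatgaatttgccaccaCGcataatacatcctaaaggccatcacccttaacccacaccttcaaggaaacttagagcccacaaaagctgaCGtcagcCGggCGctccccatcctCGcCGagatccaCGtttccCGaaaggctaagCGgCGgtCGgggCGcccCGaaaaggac

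Of the 9 genes, 7 had RefSeq promoter windows of 300 bases, 250 before and 50 after a start, with 9 windows between them, and windows of Mbd1 and Mbd2 were not used here. The median over all 32851 windows was 7 CpG sites. The Tdg window held 26, and 16.9% of all windows held at least as many. The 2 overlapping Mbd6 windows held 28 and 44, the Zbtb33 window 34, the Mbd4 window 25, the Mbd3 window 22 and the Smug1 window 15. Mbd5 had 2 windows, with 19 and 4 CpG sites. The site known for Kaiso, TCCTGCNA, searched on both strands, was found in 1 of the 9 windows, that of Mbd3, and in 4.96% of all windows. These are features of the reference sequence, and promoter methylation was not measured in the files used.

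Ratios of read counts within a library do not depend on the scaling between libraries. They compare ages only, since the transcripts differ in length. Reads of Mbd6 per read of Mbd5, 2 partners of the same deubiquitinase complex, were 1.69 and 1.47 at 7 weeks and 2.05 and 2.02 at 79 weeks. The ages did not overlap, and 79 weeks was higher.

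For Mbd3 per Mbd2, the alternative NuRD subunits, the ratios were 2.38 and 2.30 at 7 weeks and 1.97 and 2.20 at 79 weeks, with 79 weeks lower and no overlap. For Tdg per Smug1 they were 3.15 and 3.58 at 7 weeks and 2.66 and 2.28 at 79 weeks, again lower and without overlap. No test was made of these ratios, and 2 libraries per age give little measure of their error. Lack of overlap is common, since 57.7% of all tested genes showed it, and no such share was computed for ratios. Neither Mbd3 nor Mbd2 was called by edgeR (adjusted p = 0.546 and 0.525).

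**Figure D3:**
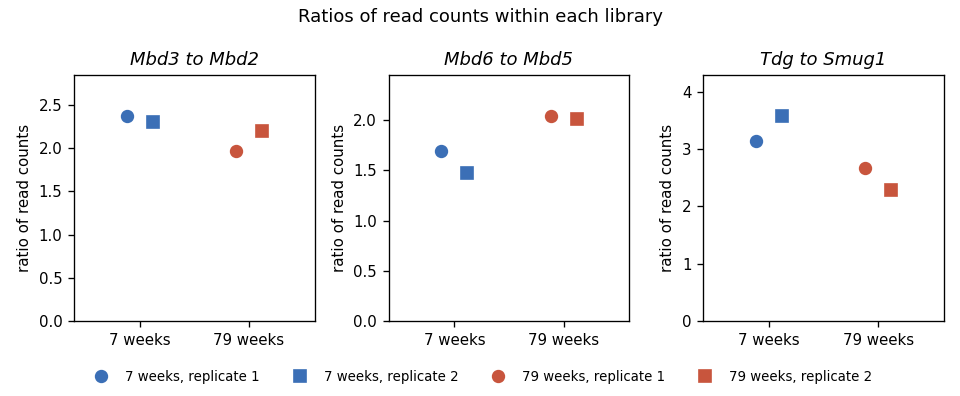
Ratio of read counts (vertical axes, from 0) within each library at 7 and 79 weeks, with circles for replicate 1 and squares for replicate 2. The Mbd6 to Mbd5 ratio is 1.47 to 1.69 at 7 weeks and 2.02 to 2.05 at 79 weeks, and the Tdg to Smug1 ratio is 3.15 to 3.58 and 2.28 to 2.66.

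Partners and pathway genes of the 9 were taken from 7 lists holding 64 genes, of which 60 were tested. Of these, 1 rose, 2 fell and 57 were not called, a share of 5.00% called against the 8.84% of all tested genes. Genes too low to test included Uhrf1, Neil3 and Apobec2.

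Among 13 NuRD partners of Mbd2 and Mbd3, 1 rose, 0 fell and 12 were not called, with a median log2 fold change of -0.01 against 0.01 over all tested genes. The gene that rose was Chd5, a chromatin remodeller of the nervous system. It had 38.9 and 48.2 CPM at 7 weeks and 87.6 and 94.5 CPM at 79 weeks. Both older libraries were far above both younger ones, a 2.08-fold rise (log2 fold change 1.06, SE 0.10, adjusted p = 0.00379). Among the alternatives, the call ended only in edgeR with 7-week replicate 1 left out (0.91, adjusted p = 0.0879), the fit in which edgeR called 0 genes of all. DESeq2 did call Chd5 there. Without 79-week replicate 1, edgeR called Mta3, another NuRD subunit, besides Chd5, in the fit whose degrees of freedom were mostly borrowed. The log2 fold change of Mta3 was 0.34 there (SE 0.09), against 0.25 (SE 0.08) with all 4 libraries. It was not called with all 4 (edgeR adjusted p = 0.0976). Mta3 was singled out after its values were seen.

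Among 9 partners of Mbd5 and Mbd6 in the deubiquitinase complex, 0 rose, 1 fell and 8 were not called, with a median of -0.02. Asxl3, a scaffold subunit, had 8.60 and 7.72 CPM at 7 weeks and 5.18 and 4.32 CPM at 79 weeks. The ages did not overlap, with a log2 fold change of -0.78 (SE 0.19, adjusted p = 0.0473). Asxl3 lost its call in 11 of 18 alternatives. These were 4 of 10 with all 4 libraries, among them DESeq2 (adjusted p = 0.0967) and edgeR scaled by library size (0.0578). The others were 7 of the 8 fits with 1 library left out. In edgeR the log2 fold change then ran from -0.91, without 79-week replicate 1, to -0.66, without 79-week replicate 2.

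The 7 tested genes among other methylated-DNA readers and proteins with the same domain had a median log2 fold change of 0.08, and 0 were called. In the order of the libraries at 7 and then 79 weeks, the zinc finger reader Zbtb4 had 214.7, 233 and 215, 249 CPM (adjusted p = 0.729). Baz2a, a remodeller subunit, had 189, 177 and 185, 172 CPM (adjusted p = 0.778). The 7 corepressors of Mbd1 and Zbtb33 had a median of 0.00, and 0 were called. Ncor1, a scaffold of the corepressor that Kaiso binds, had a log2 fold change of -0.10 (SE 0.06, adjusted p = 0.308). At an unadjusted p under 0.05 there were 2 of the 7 readers and 1 of the 7 corepressors, against 26.7% of all tested genes, and DESeq2 and limma-voom called 0 in both lists.

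Base excision repair after the glycosylase had 12 tested genes, with 0 higher, 1 lower and 11 not called, and a median of 0.04. Parp1, which detects DNA strand breaks, fell from 110 and 110 CPM to 89.2 and 89.6 CPM. The libraries of each age were nearly equal, and the log2 fold change was -0.30 (SE 0.05, adjusted p = 0.0184). With either 7-week library left out, edgeR no longer called it, at an adjusted p of 0.152 for replicate 1 and 0.0992 for replicate 2, although the log2 fold change was -0.30 in both fits. DESeq2 called Parp1 with all 4 libraries (adjusted p = 0.0116) but not with any 1 library left out (adjusted p = 0.239 to 0.494).

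Of 7 tested DNA glycosylases other than the 3 described, 0 were called and 1 passed an unadjusted p of 0.05 (26.7% of all tested genes did), with a median of 0.19. Neil1, which removes oxidised pyrimidines, had 14.5 and 14.1 CPM at 7 weeks and 16.6 and 14.9 CPM at 79 weeks (adjusted p = 0.469). Mpg, which removes alkylated purines, had 11.4 and 12.4 CPM and then 18.1 and 15.4 CPM. Both older libraries were higher for Mpg, but the log2 fold change of 0.49 (SE 0.13) did not pass the test (adjusted p = 0.0552). Of 5 tested deaminases and Gadd45 proteins 0 were called and 2 passed an unadjusted p of 0.05, against the same 26.7%, with a median of 0.30. DESeq2 and limma-voom also called 0 of these glycosylases, deaminases and Gadd45 proteins. Gadd45g and Gadd45b, stress-induced proteins linked to DNA demethylation, had log2 fold changes of 0.30 (adjusted p = 0.166) and -0.16 (adjusted p = 0.627).

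**Figure D4:**
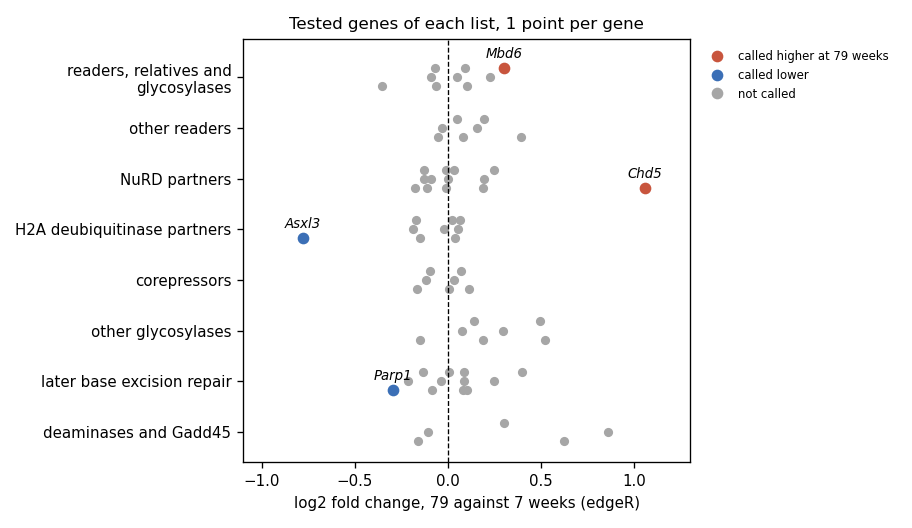
Log2 fold change of 79 against 7 weeks (horizontal axis) for every tested gene of the 9 and of the 7 lists, 1 point per gene, coloured where edgeR called the gene. Most points lie near 0, and the called genes are Mbd6 (0.30), Chd5 (1.06), Asxl3 (-0.78) and Parp1 (-0.30).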

How the data were processed

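Per the labels, cerebellar RNA was taken up in Trizol and sequenced with a Universal Plus mRNA-Seq kit. The 4 deposited tables hold raw counts, 1 row per Ensembl gene. The submitters' processing notes name cutadapt, STAR, HTSeq and the build mm9. Versions, annotation release and strand use in counting were not given in the sources used here. The HTSeq summary lines were dropped: reads in no gene were 18.7% to 20.4% of a library, reads at several places 8.02% to 8.25% and reads in overlapping genes 0.696% to 0.766%.

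Symbols came from a gene name table that matched 32919 of 37991 identifiers. The RefSeq tables are of GRCm38.p6, another build than that of the counts, so they served for names, neighbours and promoter windows only. Transcript lengths were not used, so levels are not compared between genes.

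The main test was edgeR 4.0.16 in R 4.3.3: filterByExpr (minimum count 10, minimum total 15), TMM factors (0.9812 to 1.023), quasi-likelihood F test of 79 against 7 weeks without covariates, Benjamini-Hochberg adjustment over 15292 genes. The SE is the log2 fold change divided by the square root of F. The 95% intervals use the fit's degrees of freedom, which include those borrowed from other genes. Alternatives were other scalings and filters, DESeq2 1.42.0, limma-voom (limma 3.58.1), robust dispersion, a replicate block and each library left out; a crossed block and DESeq2 with each library left out were added after the data were seen. The fits were tested on simulated data whose changes were larger than those of Mbd6, Tdg and Parp1. That test cannot show how well changes as small as theirs are found. The genes followed and the lists were chosen with earlier results of these data known. Named partners are the called genes of a list, at most 4, and in lists with 0 calls the 2 genes of highest mean CPM; genes with overlapping spans, the copies of Tdg and the untested genes were named outside this rule. Some genes of the lists are not reported here by name.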

Additional observations from a re-analysis of the deposited data

How the results depend on the processing

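Over the 10 alternatives with all 4 libraries and the 8 fits with 1 library left out (4 in edgeR, 4 in DESeq2), Mbd2, Mbd3, Mbd4, Zbtb33 and Smug1 kept their direction and were not called. With all 4 libraries Mbd6 stayed called in each alternative. With no filter on low counts, where 23285 genes were tested, and with robust dispersion estimates, 2 of the 9 genes were called, Mbd6 and Tdg (-0.36 and -0.35 for Tdg), as were 9 and 5 of the partner genes. Of all tested genes, the first called 3051 of 23285 and the second 1746 of 15292, against 1352 of 15292 in the main fit. Scaling by library size called 6 partner genes against 3, and 1385 of all 15292 tested genes. The cause of these changes was not tested.

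Leaving out 1 library in edgeR gave 0 to 1 of the 9 genes, 0 to 2425 genes of all and 0 to 5 partner genes. Log2 fold changes then ran from -0.068 to 0.15 for Mbd1, from -0.14 to 0.0053 for Mbd5, from 0.25 to 0.34 for Mbd6 and from -0.47 to -0.25 for Tdg, so Mbd1 and Mbd5 changed sign. An age with 1 library is then assumed to vary like the other. DESeq2 called 0 of the 9 genes in each of these fits. Of all genes it called 243 and 425 without 7-week replicates 1 and 2, and 381 and 654 without 79-week replicates 1 and 2. In that order its log2 fold change of Mbd6 was 0.31, 0.26, 0.25 and 0.33, and leaving out 7-week replicate 2 or 79-week replicate 1 turned Mbd1 to -0.0042 or -0.076.

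The replicate numbers in the labels are not said to pair libraries, and with 2 numbers the data cannot show that they do. The difference between replicates 1 and 2 at 7 weeks correlated with that at 79 weeks at -0.106 across 15292 genes. With the number as a replicate block, edgeR called 1396 genes of all, 1 of the 9 and 2 of the partner genes, Asxl3 having an adjusted p of 0.0545. The crossed pairing called 2014, 2 (Mbd6 and Tdg) and 5.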
